A study of Mus musculus with 6 samples.

Results

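The genes described here are 31 genes of cholesterol metabolism, taken by symbol from the 54532 genes in a table of read counts from mouse liver. Of these, 20 encode enzymes of sterol synthesis, 4 encode the SREBP2 control machinery, and 6 act in receptor-mediated uptake, receptor turnover, sterol transport and cholesterol esterification. The last is Ch25h, the enzyme that makes 25-hydroxycholesterol. The choice of genes used no measured value, but it was made with earlier results on these libraries known, and the fall of Ch25h was among those results. The study sequenced RNA from the ischemic lobe of C57BL/6 mice, 3 libraries from animals made deficient in IRF8 in hepatocytes (IRF8-cKO-71, then IRF8-cKO-88, then IRF8-cKO-106) and 3 from wild-type animals (WT-14, then WT-44, then WT-77), and values per library are given in that order. Both groups went through 1 h of warm ischemia followed by 12 h of reperfusion, so no uninjured liver enters any comparison. The labels give neither the Cre driver nor the age or sex of the mice, and they do not say that each library is a separate animal. The p-values therefore measure the spread between these libraries, which may be technical in part.

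Cholesterol is built from acetyl-CoA through mevalonate, isoprenoid units, squalene and lanosterol, and the liver is a main site of this synthesis. The genes of the pathway share a transcription factor, SREBP2, which the escort protein SCAP carries out of the endoplasmic reticulum when sterols are low and which INSIG proteins retain there when sterols are high. 25-hydroxycholesterol, made by Ch25h, binds INSIG proteins and favours that retention. It is best known as a product of activated myeloid cells, where interferon and Toll-like receptor signals induce Ch25h.

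Promoter sequences were taken from RefSeq (GRCm38.p6), which supplied 31 windows for 25 of the 31 genes. No entry was used for Stard4, Sqle, Scarb1, Fdft1, Fdps and Soat2. Each window searched covers the 250 bases before a transcription start, and motifs were searched on both strands. 4 windows are printed 5′ to 3′ on the strand of the gene: Ch25h because it alone passed the test, Hmgcs1 and Acat2 because they hold the SREBP element searched for, and Lss as an enzyme of the later pathway with a CCAAT box. Capitals mark the CRE letters in Ch25h (chr19:34475149-34475398, minus strand), the SRE core and CCAAT letters in Hmgcs1 (chr13:119690101-119690350, plus strand), the SRE core letters in Acat2 (chr17:12960726-12960975, minus strand) and the CCAAT letters in Lss (chr10:76531355-76531604, plus strand).
Ch25h: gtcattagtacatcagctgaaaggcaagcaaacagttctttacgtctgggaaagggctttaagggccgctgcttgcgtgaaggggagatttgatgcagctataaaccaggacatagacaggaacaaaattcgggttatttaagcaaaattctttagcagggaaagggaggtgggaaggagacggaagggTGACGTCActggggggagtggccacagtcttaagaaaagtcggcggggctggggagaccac
Hmgcs1: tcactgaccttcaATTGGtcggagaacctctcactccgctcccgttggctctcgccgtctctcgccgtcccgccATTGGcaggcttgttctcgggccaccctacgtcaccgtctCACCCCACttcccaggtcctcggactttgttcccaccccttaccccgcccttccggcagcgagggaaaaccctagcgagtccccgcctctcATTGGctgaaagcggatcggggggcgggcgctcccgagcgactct
Acat2: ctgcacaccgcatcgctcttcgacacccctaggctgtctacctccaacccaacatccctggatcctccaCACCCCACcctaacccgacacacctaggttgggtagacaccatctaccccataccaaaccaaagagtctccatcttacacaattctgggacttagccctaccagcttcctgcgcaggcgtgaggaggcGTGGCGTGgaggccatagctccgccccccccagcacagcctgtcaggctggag
Lss: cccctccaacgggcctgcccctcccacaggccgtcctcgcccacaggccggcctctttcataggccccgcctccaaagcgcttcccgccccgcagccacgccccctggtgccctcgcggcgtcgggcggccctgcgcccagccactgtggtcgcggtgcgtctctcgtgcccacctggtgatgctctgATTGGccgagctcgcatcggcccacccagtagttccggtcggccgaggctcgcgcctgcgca

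The SRE core CACNCCAC, a form of the sterol regulatory element bound by SREBP proteins, was present before Acat2, Hmgcs1 and Insig1, and in 5.29% of all 32851 promoter windows. The CCAAT letters, the box bound by NF-Y, were present for 20 of the 25 genes and in 20 of their 31 windows (64.5%), against 33.9% of all windows. The cAMP response element TGACGTCA was found in the Ch25h window alone among these genes and in 1.55% of all windows. The interferon-stimulated response element occurred before Ebp and Ggps1 and in 2.98% of all windows, and the NF-kB motif before Mvd and in 1.41%. AP-1 letters, TGANTCA, lay before Dhcr7 and Msmo1 and in 6.75% of all windows. Matches were allowed to overlap. A match is a description of letters and not of binding.

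Total counts ran from 14758237 to 16805830 per library. Levels are given as CPM, read counts relative to the library total after scaling by TMM, a method that centres the bulk of genes between libraries. Of 13134 genes with enough reads to test, 182 (1.39%) passed an adjusted p of 0.05, 59 higher and 123 lower in IRF8-cKO. Scaled by library totals alone, 39 genes were higher and 43 lower, and the centre of all log2 fold changes was 0.25 in place of 0.03. Irf8 itself read 9.32, 9.50 and 10.3 CPM in the WT libraries and 5.67, 6.72 and 4.17 CPM in the IRF8-cKO libraries. Its log2 fold change was -0.81 (SE 0.33, adjusted p = 0.174), which did not pass the threshold although all 3 IRF8-cKO values lay below the WT values. The labels do not say which part of Irf8 was removed, and RNA of the whole lobe also comes from cells other than hepatocytes. Hepatocyte markers, 9 of which were analysed, summed to between 77357 and 117950 CPM in WT and between 60420 and 75412 CPM in IRF8-cKO, so the labelled tissue was evident in all 6 libraries. None of the 9 passed the edgeR threshold, and 2 were lower at an unadjusted p under 0.05, against 12.0% of all tested genes. DESeq2 called 2 lower (Ttr and Serpina1c), where it called 10.8% of all genes in either direction. Ttr had the lowest p in edgeR (log2 fold change -1.05, adjusted p = 0.129).

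Ch25h fell in the IRF8-cKO livers and was the one member to pass the test. It is a single-exon gene at chr19:34473786-34475135 on the minus strand (mm10), and 548, 258 and 724 reads were counted on it in libraries 14, 44 and 77 of WT. The IRF8-cKO libraries held 9 reads in IRF8-cKO-71, 53 in IRF8-cKO-88 and 12 in IRF8-cKO-106. As levels these were 33.6, 22.3 and 48.1 CPM in WT against 0.555, 3.27 and 0.556 CPM in IRF8-cKO. The groups did not overlap, and the highest IRF8-cKO library, IRF8-cKO-88, stayed below the lowest WT library, WT-44. The means were 34.7 ± 12.9 CPM in WT against 1.46 ± 1.57 CPM in IRF8-cKO (SD, n = 3 each), or -4.59 in log2 fold change (SE 0.71, adjusted p = 0.0381), 24.0-fold lower. An exact two-sided permutation test of the 6 libraries gave p = 0.1, the smallest that 3 against 3 allows.

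**Figure D1:**
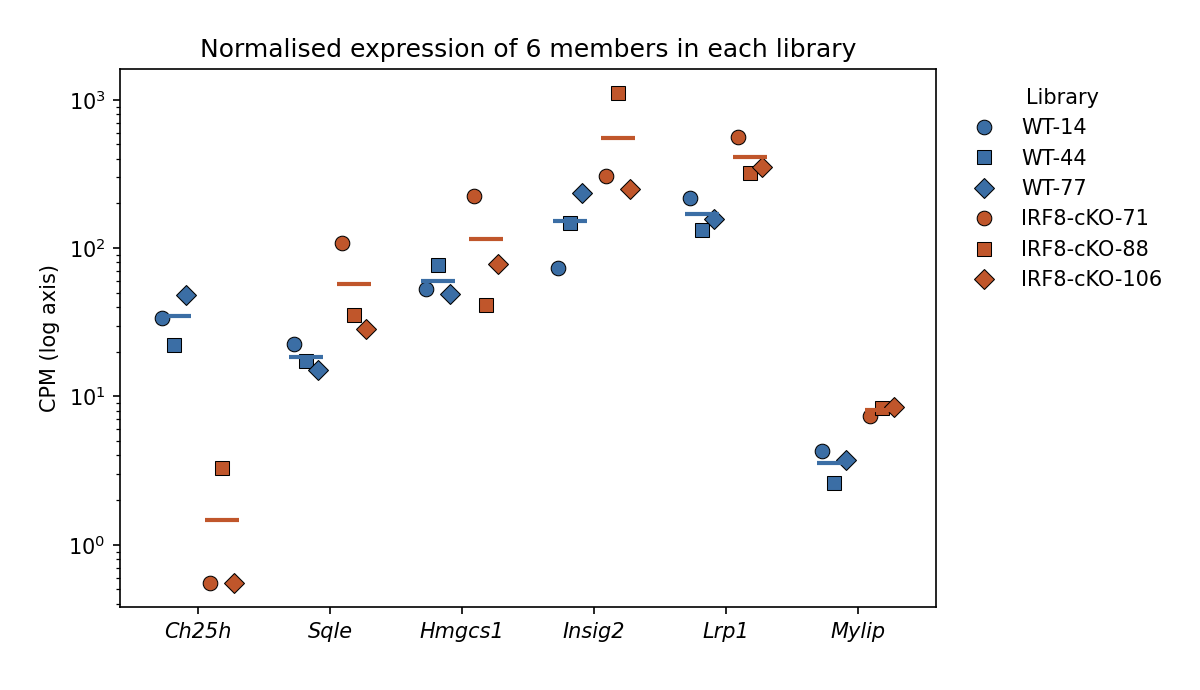
CPM on a log axis for Ch25h, Sqle, Hmgcs1, Insig2, Lrp1 and Mylip in each of the 6 libraries, with a bar at each group mean. Ch25h in IRF8-cKO lies at 0.555, 3.27 and 0.556 CPM, below every WT library, while the high IRF8-cKO points of Hmgcs1 and Insig2 come from 1 library each.

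The Ch25h call depended on which libraries entered. It was -5.94 on the log2 scale when IRF8-cKO-88 was left out (adjusted p = 0.00111), and -4.60 without WT-14 (adjusted p = 0.0472). Without IRF8-cKO-71 it was -4.21 (adjusted p = 0.0511), without IRF8-cKO-106 -4.16 (adjusted p = 0.0700), without WT-44 -4.83 (adjusted p = 0.146) and without WT-77 -4.27 (adjusted p = 0.170). The direction held in each of these fits, and the fold moved by more than 1.5 times only without IRF8-cKO-88.

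Neutrophil markers moved with Ch25h. All 8 tested members of that list had a lower level in IRF8-cKO with no overlap of groups, 5 of them past the threshold, and the 10 listed genes summed to between 183 and 225 CPM in WT and between 23.4 and 53.3 CPM in IRF8-cKO. The calgranulins S100a8 and S100a9 fell by 2.57 and 2.37 on the log2 scale (adjusted p = 0.0243 for both), Ltf, the granule protein lactoferrin, fell by 4.27 (adjusted p = 0.0311) and Retnlg fell by 3.05 (adjusted p = 0.0345). Interferon-stimulated genes were lower too, with 3 of 12 past the threshold and a summed level of 147 to 227 CPM in WT against 60.9 to 99.99 CPM in IRF8-cKO. The 3 were Ifit3 (log2 fold change -2.64, adjusted p = 0.0243), Mx2 (-2.03, adjusted p = 0.0429) and Irf7 (-1.30, adjusted p = 0.0446), all induced by interferon. Kupffer cell markers went the other way, with 8 of 8 log2 fold changes positive, 0 past the edgeR threshold, 5 higher at an unadjusted p under 0.05, 3 calls from DESeq2, and sums of 183 to 225 CPM in WT against 239 to 502 CPM in IRF8-cKO. Cd5l had the lowest p of these, at 1.37 (adjusted p = 0.0784). Monocyte and macrophage markers summed to between 122 and 130 CPM in WT and between 89.1 and 119 CPM in IRF8-cKO, and cholangiocyte markers to between 456 and 937 CPM and between 129 and 250 CPM. The lowest p in these lists belonged to Adgre1 (log2 fold change 1.76, adjusted p = 0.0796) and Krt19 (-3.47, adjusted p = 0.0551). Sinusoidal endothelial markers summed to 111 to 176 CPM in WT against 122 to 189 CPM in IRF8-cKO and stellate markers to 220 to 336 CPM against 186 to 318 CPM, with Lyve1 (-1.09, adjusted p = 0.131) and Lrat (1.86, adjusted p = 0.0951) lowest in p. In these 4 lists edgeR called 0 genes; at an unadjusted p under 0.05, 1 monocyte and macrophage marker was higher and 3 were lower, 6 of 6 cholangiocyte markers were lower, 3 endothelial markers were higher and 1 lower, and 1 stellate marker was higher. DESeq2 called 4 cholangiocyte markers lower and Adgre1 and Lrat higher. Over all tested genes, edgeR called 0.937% lower and 0.449% higher, and DESeq2 called 10.8% in either direction. At an unadjusted p under 0.05 in edgeR, 12.1% of all genes were higher and 12.0% lower. The groups did not overlap, with IRF8-cKO lower, for 14.5% of all genes. No listed gene was at 0 in all 6 libraries. The part of these cell types in the Ch25h difference was not tested, and in bulk tissue fewer cells of a type and less RNA per cell cannot be told apart.

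No synthesis enzyme passed the test. Of the 20, 19 had enough reads, and 0 passed the threshold in either direction, against 0.449% of all tested genes called higher and 0.937% called lower. At an unadjusted p under 0.05, 2 were higher (Mvd and Sqle) and 2 lower (Tm7sf2 and Nsdhl). DESeq2 called 1 of the 19, Sqle, where it called 10.8% of all genes in either direction. Log2 fold changes were positive for 12 and negative for 7, with a median of 0.16, against 51.5% positive and a median of 0.03 over all tested genes. The balance depended on the method. Scaled by library totals alone, 15 were positive and 4 negative. With limma-voom 11 were positive and 8 negative. With limma-voom and library weights 8 were positive and 11 negative, with a median of -0.065. Over all 30 tested members, 5 were higher and 4 lower at an unadjusted p under 0.05, where 12.1% of all genes were higher and 12.0% lower (24.1% in either direction). CPM did not overlap between the groups for 5 members that were higher and 4 that were lower, against 14.4% and 14.5% of all genes (28.9% together).

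**Figure D2:**
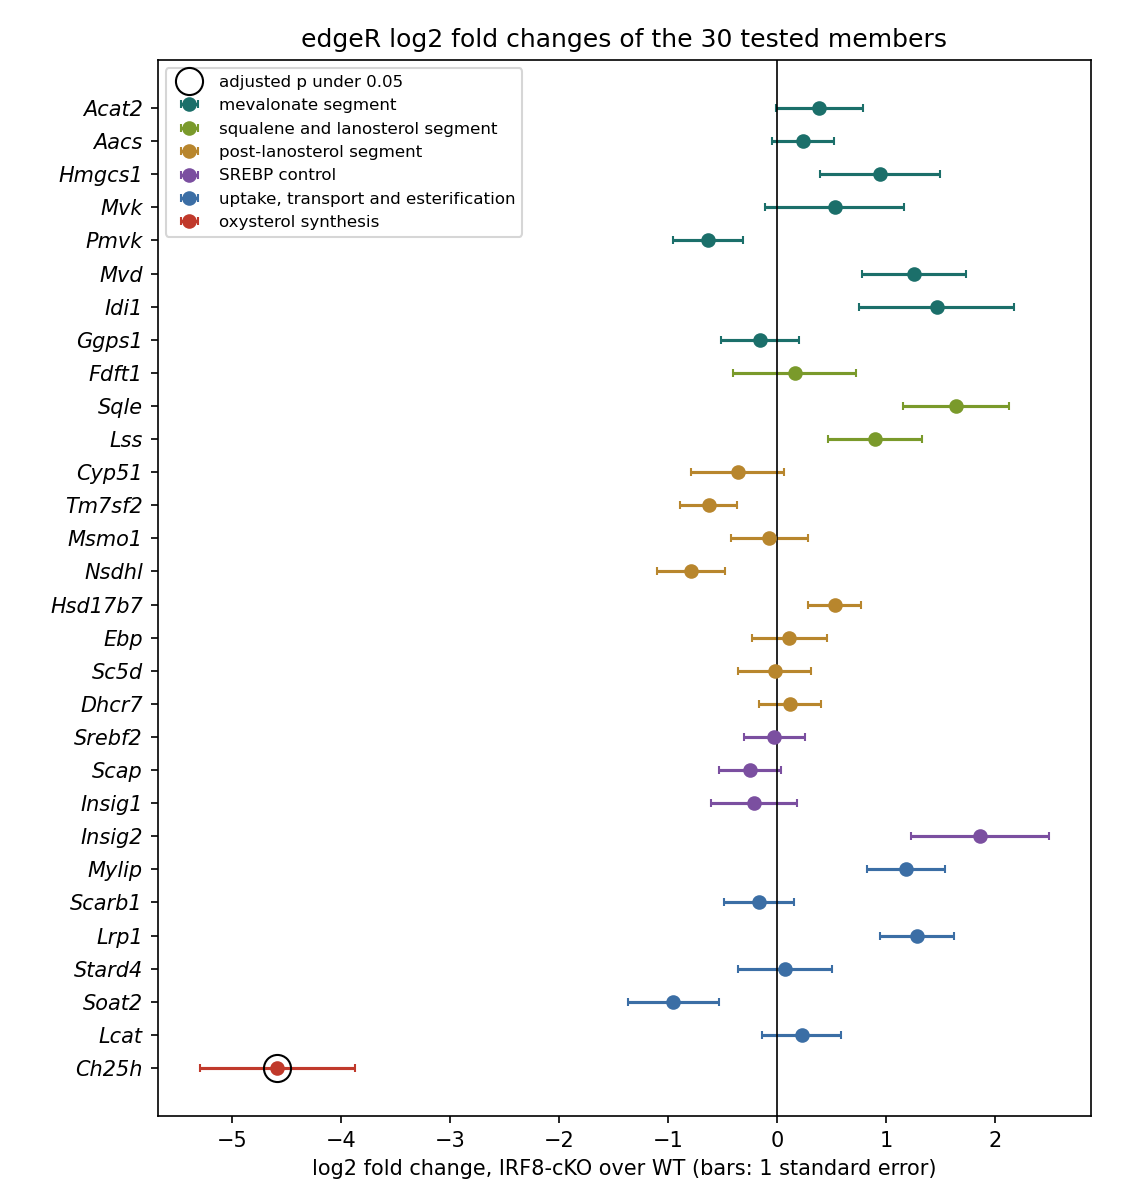
Log2 fold changes of IRF8-cKO over WT for the 30 tested members, coloured by role and with bars of 1 standard error from the edgeR fit. Ch25h at -4.59 is the one circled point (adjusted p under 0.05), and the synthesis enzymes lie between -0.79 and 1.64.

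In the mevalonate segment, which runs from acetyl-CoA to the isoprenoid diphosphates, 8 of 9 enzymes were tested and their median log2 fold change was 0.46. Hmgcs1, the cytosolic HMG-CoA synthase, read 52.8, 76.8 and 49.1 CPM in WT against 224, 41.2 and 78.5 CPM in IRF8-cKO. IRF8-cKO-71 was the high one and IRF8-cKO-88 the low one, so the groups overlapped (log2 fold change 0.94, SE 0.55, adjusted p = 0.315). Mvd, which decarboxylates mevalonate diphosphate, read 5.95, 7.94 and 6.05 CPM in WT against 24.1, 17.8 and 5.61 CPM in IRF8-cKO. IRF8-cKO-71 and IRF8-cKO-88 lay above all WT libraries and IRF8-cKO-106 below them (log2 fold change 1.25, SE 0.48, adjusted p = 0.156). Pmvk, the phosphomevalonate kinase, read 12.3, 11.9 and 20.9 CPM in WT against 10.9, 9.50 and 8.66 CPM in IRF8-cKO. All 3 of its IRF8-cKO values were below WT by a narrow margin (log2 fold change -0.64, SE 0.32, adjusted p = 0.252).

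The other tested enzymes of the segment overlapped between groups. Acat2, a thiolase that makes acetoacetyl-CoA, averaged 15.3 CPM in WT against 19.99 CPM in IRF8-cKO, and Aacs, the acetoacetyl-CoA synthetase, 21.1 and 24.9 CPM. Mvk, the mevalonate kinase, ranged from 2.33 to 5.05 CPM in WT and from 1.36 to 10.7 CPM in IRF8-cKO. Idi1, the isopentenyl diphosphate isomerase, ranged from 2.16 to 7.05 CPM and from 4.01 to 29.2 CPM, and the log2 fold change was 1.46 (SE 0.71, adjusted p = 0.241). Ggps1, which leads into geranylgeranyl diphosphate, averaged 13.2 and 11.8 CPM. Fdps, the farnesyl diphosphate synthase, had 6, 2 and 5 reads in WT and 61, 12 and 7 in IRF8-cKO, below the filter on low counts, so it has no test in the fit used here.

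Fdft1, Sqle and Lss convert farnesyl diphosphate to lanosterol, and their log2 fold changes had a median of 0.89. Sqle, the squalene epoxidase, read 22.6, 17.4 and 15.1 CPM in WT against 108, 35.7 and 28.5 CPM in IRF8-cKO. Every IRF8-cKO library was above every WT library, with IRF8-cKO-71 far above the other two. The log2 fold change was 1.64 (SE 0.48, adjusted p = 0.0960), 3.12-fold higher and not past the threshold over all genes. Lss, the lanosterol synthase, averaged 17.3 ± 3.62 CPM in WT against 32.2 ± 21.0 CPM in IRF8-cKO (SD, n = 3 each), with 55.9 CPM in IRF8-cKO-71 as its highest. Fdft1, the squalene synthase, averaged 41.3 CPM in WT against 46.1 CPM in IRF8-cKO, where it ranged from 21.7 to 94.7 CPM.

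After lanosterol, 8 enzymes remove methyl groups and rearrange double bonds to yield cholesterol, and their median log2 fold change was -0.05. Tm7sf2, a sterol reductase, read 101, 133 and 120 CPM in WT against 74.6, 86.5 and 67.6 CPM in IRF8-cKO, with no overlap (log2 fold change -0.63, SE 0.26, adjusted p = 0.180). Nsdhl, a dehydrogenase of the demethylation complex, read 24.2, 30.8 and 21.8 CPM in WT against 20.5, 10.4 and 13.6 CPM in IRF8-cKO, also with no overlap (log2 fold change -0.79, SE 0.31, adjusted p = 0.168). Hsd17b7, the ketoreductase of the same complex, read 44.7, 41.2 and 41.3 CPM in WT against 70.4, 58.3 and 54.3 CPM in IRF8-cKO. It was the enzyme of this segment with each IRF8-cKO value above WT (log2 fold change 0.53, SE 0.25, adjusted p = 0.221). Members of the same demethylation step thus had levels on opposite sides of WT, none past the threshold.

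For the remaining 5 enzymes the groups overlapped, with log2 fold changes from -0.36 to 0.12. Cyp51, the lanosterol demethylase, averaged 95.4 CPM in WT against 74.2 CPM in IRF8-cKO. Msmo1, the methylsterol monooxygenase, averaged 82.6 and 78.5 CPM, Ebp, the sterol isomerase, 143 and 155 CPM, Sc5d, the desaturase, 96.7 and 95.1 CPM, and Dhcr7, the reductase of 7-dehydrocholesterol, 37.9 and 41.1 CPM.

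IRF8-cKO-71 carried the highest level of the 6 libraries for 14 of the 19 tested enzymes (73.7%), against 24.2% of all tested genes. The exceptions were Aacs, Pmvk, Ggps1, Tm7sf2 and Nsdhl. On the log2 scale, relative to each gene's mean over the 6 libraries, the enzymes averaged 0.74 in IRF8-cKO-71. The averages were -0.33 in IRF8-cKO-88, -0.18 in IRF8-cKO-106 and -0.11, -0.10 and -0.02 in libraries 14, 44 and 77 of WT. On this average 1 IRF8-cKO library stood above WT and the other two below it. The enzymes also varied more among the IRF8-cKO libraries. The SD of log2 CPM was larger in IRF8-cKO than in WT for 17 of 19 enzymes (89.5%), against 62.9% of all tested genes. The median SD was 0.27 in WT and 0.68 in IRF8-cKO for the enzymes, and 0.33 and 0.44 for all genes.

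**Figure D3:**
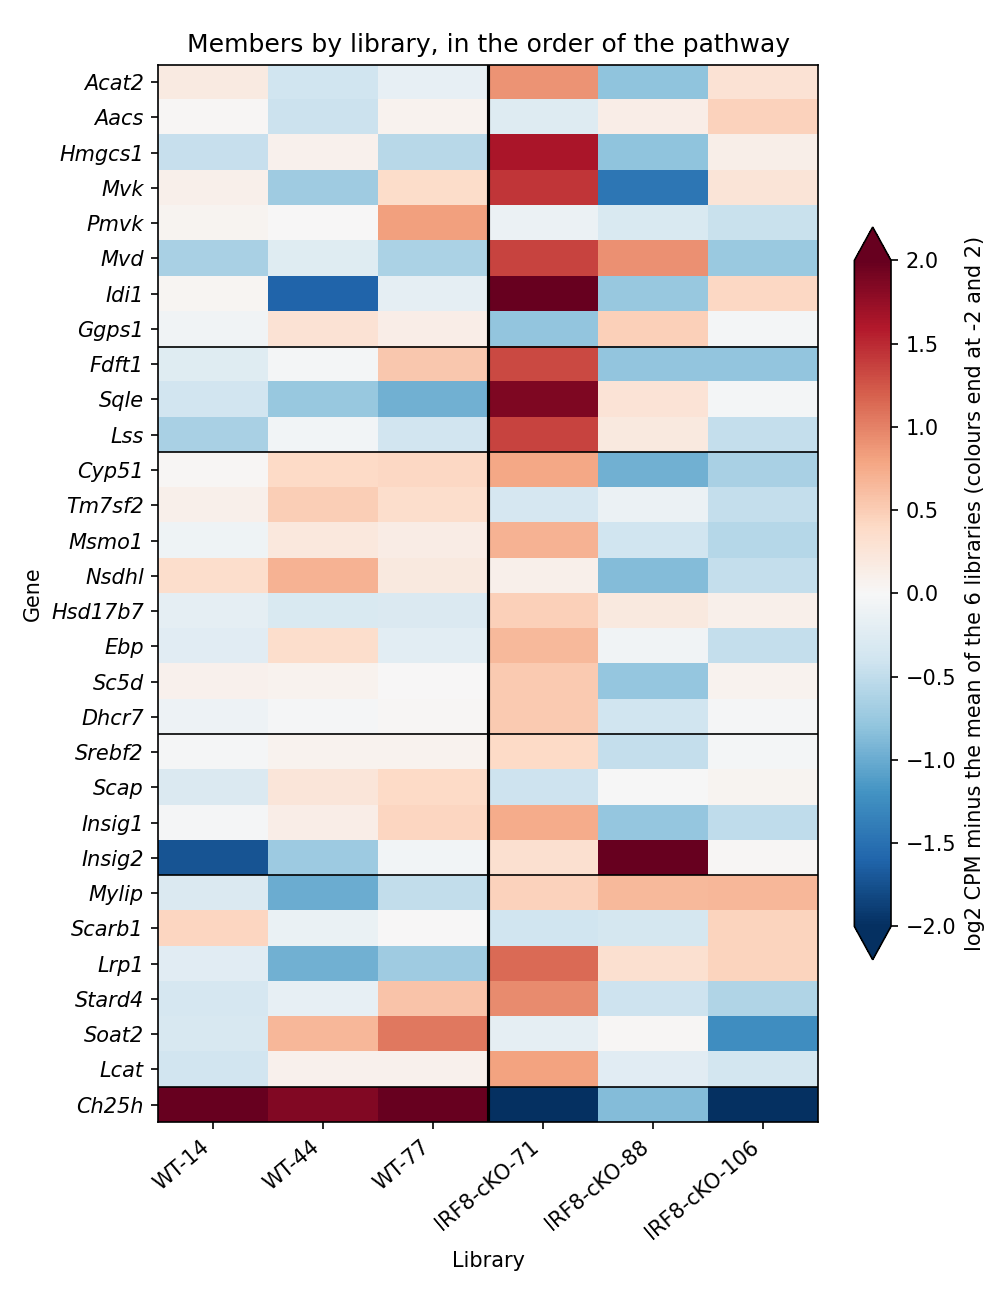
Log2 CPM of each tested member minus its mean over the 6 libraries, in pathway order, with colours ending at -2 and 2 and lines between the roles. The column of IRF8-cKO-71 is red for most enzymes from Acat2 to Dhcr7 and the column of IRF8-cKO-88 is mostly blue, while Ch25h is red in all 3 WT columns and blue in all 3 IRF8-cKO columns.

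Without IRF8-cKO-71 the direction of the enzyme list turned, to 8 positive and 11 negative log2 fold changes with a median of -0.16. Sqle then had a log2 fold change of 0.81, Mvd 0.82, Idi1 0.37, Lss 0.24 and Hmgcs1 0.02, and Fdft1 moved from 0.16 to -0.91. Cyp51 moved from -0.36 to -1.08 (adjusted p = 0.0711). IRF8-cKO-71 also held the highest summed Kupffer cell markers, 502 CPM against 239 to 258 CPM in the other IRF8-cKO libraries. Its hepatocyte marker sum of 63870 CPM, of which Alb made up 46924 CPM, lay between theirs. Averaged per gene as for the enzymes, the hepatocyte markers were 0.01 in IRF8-cKO-71, -0.04 in IRF8-cKO-88 and -0.89 in IRF8-cKO-106. The part of these differences in the enzyme levels was not tested.

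**Figure D4:**
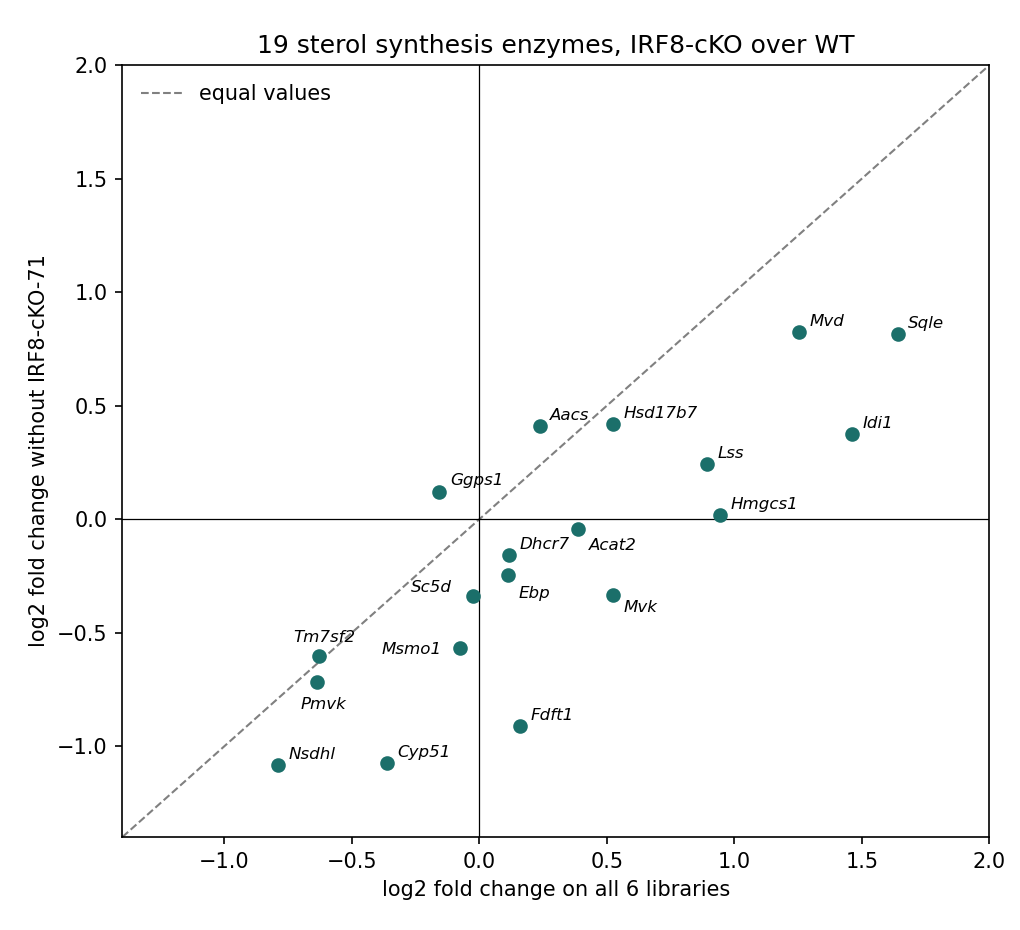
Log2 fold change of the 19 tested synthesis enzymes on all 6 libraries (horizontal) against the value without IRF8-cKO-71 (vertical), with a dashed line of equal values. All points but Aacs, Ggps1 and Tm7sf2 lie below the line, and Fdft1 moves from 0.16 to -0.91.

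Of the SREBP2 control genes, Srebf2, which encodes the factor, read 43.5, 46.5 and 46.4 CPM in WT against 58.8, 32.0 and 43.1 CPM in IRF8-cKO. The WT values sat inside the IRF8-cKO range (log2 fold change -0.03, SE 0.28, adjusted p = 0.962). Insig1, itself an SREBP target, read 65.8, 73.6 and 89.6 CPM in WT against 112, 38.9 and 47.0 CPM in IRF8-cKO. It had the order seen for the enzymes, high in IRF8-cKO-71 and low in the other two (log2 fold change -0.21, SE 0.39, adjusted p = 0.772). Scap averaged 66.2 CPM in WT against 55.7 CPM in IRF8-cKO.

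Insig2, the second retention protein and in liver under separate hormonal control, had another order across the libraries than Insig1. It read 73.9, 148 and 236 CPM in WT against 307, 1103 and 250 CPM in IRF8-cKO. All IRF8-cKO values were above WT, IRF8-cKO-106 only just, and IRF8-cKO-88 held by far the highest. The log2 fold change was 1.86 (SE 0.63, adjusted p = 0.132), and without IRF8-cKO-88 it was 0.87 (adjusted p = 0.225).

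Of all 30 tested members, Lrp1 had the lowest adjusted p after Ch25h. The gene, which encodes a large endocytic receptor for lipoprotein remnants, read 219, 132 and 156 CPM in WT against 564, 320 and 351 CPM in IRF8-cKO. The groups did not overlap, and the log2 fold change was 1.28 (SE 0.34, adjusted p = 0.0796), 2.43-fold higher. Mylip, a ubiquitin ligase that sends lipoprotein receptors for breakdown, read 4.29, 2.59 and 3.72 CPM in WT against 7.34, 8.33 and 8.48 CPM in IRF8-cKO. Its 3 IRF8-cKO values were close together and all above WT (log2 fold change 1.18, SE 0.35, adjusted p = 0.0960).

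Soat2, which esterifies cholesterol inside hepatocytes, read 27.6, 54.8 and 72.0 CPM in WT against 30.4, 34.9 and 14.5 CPM in IRF8-cKO. WT-14 lay among the IRF8-cKO values (log2 fold change -0.95, SE 0.42, adjusted p = 0.199). Scarb1, the HDL receptor, averaged 135 CPM in WT against 121 CPM in IRF8-cKO. Stard4, a cytosolic sterol carrier, averaged 22.5 and 23.6 CPM, and Lcat, the secreted enzyme that esterifies cholesterol in plasma, 264 and 308 CPM.

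Divided by the gene length in the table, the levels could be compared between members. In WT, Lcat was the highest at 197 ± 35.1 CPM per kilobase (SD, n = 3), followed by Ebp at 62.0 ± 14.7 and Insig2 at 43.96 ± 23.4. Ch25h came next at 25.7 ± 9.59 CPM per kilobase, close to Insig1 at 24.7, and from Ebp to Insig1 no neighbours in this order differed beyond their spread. Mylip at 1.09 and Mvk at 1.44 CPM per kilobase were the lowest of the 30 tested members. Fdps was listed at 0.069 CPM per kilobase. Its count is uncertain, as part of its sequence is shared with other genes, and any loss of reads to them was not tested. In IRF8-cKO, Ch25h was at 1.08 ± 1.16 CPM per kilobase (SD, n = 3).

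The gene lists around the pathway gave no call in edgeR, which called 1.39% of all tested genes. For these lists and the oxysterol list below, the shares over all genes at an unadjusted p under 0.05 were 12.1% higher and 12.0% lower. DESeq2 called 10.8% of all genes in either direction, and 51.5% of all log2 fold changes were positive. Of 9 genes for SREBP processing and INSIG partners, 0 passed the threshold and 1 was higher at an unadjusted p under 0.05, which DESeq2 also called. All 9 log2 fold changes were positive with a median of 0.41, and the lowest p was that of Sec23a, a coat protein of vesicles leaving the endoplasmic reticulum, at 1.10 (adjusted p = 0.0878). Of 10 genes of the LXR receptors and their targets, 0 passed, 3 were lower at an unadjusted p under 0.05 and DESeq2 called 2 lower. Abcg5, one of the paired sterol exporters, had the lowest p, at -1.19 in log2 fold change (adjusted p = 0.0705). It read 29.5, 37.2 and 46.5 CPM in WT against 12.3, 16.1 and 21.2 CPM in IRF8-cKO, with no overlap.

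In the list of oxysterol metabolism and sensing, 5 of 8 genes were tested (Hsd3b7, Gpr183 and Sult2b1 were under the filter), 0 passed the threshold and 1 was higher at an unadjusted p under 0.05 and by DESeq2. That gene, Osbp, an oxysterol-binding transfer protein, had the lowest p at 1.05 (adjusted p = 0.0700), with 56.2, 49.4 and 43.8 CPM in WT against 95.9, 122 and 90.9 CPM in IRF8-cKO. Cyp7b1, which breaks 25-hydroxycholesterol down, is added here for that role, after its values were seen. It ranged from 92.3 to 227 CPM in WT and read 539, 159 and 89.0 CPM in IRF8-cKO, high in IRF8-cKO-71 and overlapping otherwise.

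Some other settings called more members, and more genes in all. DESeq2 called Sqle, Insig2, Mylip, Lrp1 and Ch25h, 5 of 30, where it called 10.8% of all genes. Without the filter on low counts edgeR called 7 of 31, adding Mvd, Idi1 and Fdps to Sqle, Insig2, Lrp1 and Ch25h, against 7.15% of all genes. Library weights in limma-voom gave Lrp1 and Ch25h against 5.06%, and without IRF8-cKO-88 edgeR gave Sqle, Lrp1 and Ch25h against 8.83%.

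Some counts are uncertain because reads may be shared with similar or overlapping genes. The share of 50-base stretches also found in another gene was 45.9% for Acat2, whose paralogue is Acat3, 30.7% for Fdft1, which overlaps the far more abundant Ctsb on the opposite strand (57448 reads against 4134), and 30.5% for Idi1, which has pseudogenes. It was 11.7% for Fdps, shared with 5 other genes, and whether the authors' counting lost Fdps reads to them was not tested. The share was 13.6% for Hmgcs1, with Gm48342 (0 reads), and 13.1% for Scap, with 5830462I19Rik (2 reads in all 6 libraries together). For Ggps1 the share was 11.75%, spread over 61 other genes with a processed pseudogene, Gm5630, the largest. The strand setting of the counting is not given in the sources used here. This also touches Ggps1, which had 1197 reads against 2223 for Arid4b on the opposite strand, and Cyp51, which had 7925 reads against 3296 for Akap9 on the opposite strand. For Ch25h it was 8.22%, from a noncoding gene on the opposite strand, Gm26902, which had 11 reads in all 6 libraries together.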

How the data were processed

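The deposited table holds whole-number read counts per gene for 6 bulk RNA libraries, with a gene length column from the same table (its unit is bases). Per the submitters' processing notes, HISAT2 2.0.5, featureCounts 1.5.0-p3 and the mm10 build were used; the strand setting is not given in the sources used here. The 31 members and all other lists were chosen with earlier results of these data known.

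Genes were kept by edgeR's filterByExpr (minimum count 10, total 15), which left 13134 of 24095 genes with a read. Libraries were scaled by TMM, and IRF8-cKO was compared with WT by edgeR's robust quasi-likelihood test (edgeR 4.0.16, R 4.3.3), two-sided, with Benjamini-Hochberg adjustment over all genes tested and a threshold of 0.05. The script was tested on simulated counts. Total counts of 14758237 to 16805830 set the precision of low genes such as Fdps. Replicates within a group differed by more than sampling noise. CPM in every library is given for members past an adjusted or unadjusted p of 0.05, those with no overlap of groups, and Hmgcs1, Sqle, Srebf2 and Insig1. From each other list the called genes, at most 4, or else the gene with the lowest p are named. Alternatives were other scalings, filters, DESeq2 1.42.0, limma-voom (limma 3.58.1), a length offset and leaving out each library.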

Additional observations from a re-analysis of the deposited data

How the results depend on the processing

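No paired analysis was possible because no library number occurs in both groups. The count of genes called, 182 with all libraries, was 82 when scaled by library totals, 1723 without the low-count filter, 1423 with DESeq2, 111 with limma-voom, 665 with limma-voom and library weights and 77 with a length offset, and from 0 to 1205 with 1 library left out (0 without WT-77, where 1988 genes had an unadjusted p under 0.05, 1 without WT-44, 20 without IRF8-cKO-106, 1205 without IRF8-cKO-88). Members called were 7 without the filter, 5 with DESeq2, 2 with library weights and from 0 to 3 with 1 library left out. The cause of these differences was not tested.

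Ch25h kept its direction in all of these fits and its call in each one that used all 6 libraries; with 1 left out its log2 fold change ran from -5.94 to -4.16. The sign turned, with no call on either side, for 6 members under library totals (Ggps1 0.089, Msmo1 0.11, Sc5d 0.20, Srebf2 0.19, Scap 0.018 and Scarb1 0.091), for Fdft1 (-0.18) and Stard4 (-0.061) under limma-voom, and under library weights for Mvk (-0.23), Fdft1 (-0.63), Ebp (-0.060), Dhcr7 (-0.065), Stard4 (-0.44) and Lcat (-0.091). With 1 library left out it turned within these ranges: Acat2 -0.044 to 0.73, Mvk -0.33 to 0.98, Ggps1 -0.49 to 0.12, Fdft1 -0.91 to 0.50, Msmo1 -0.57 to 0.16, Ebp -0.25 to 0.35, Sc5d -0.34 to 0.26, Dhcr7 -0.16 to 0.31, Srebf2 -0.27 to 0.17, Insig1 -0.82 to 0.059, Scarb1 -0.48 to 0.021, Stard4 -0.57 to 0.39 and Lcat -0.23 to 0.44. The median over members ran from -0.19 to 0.35. Fdps, with few reads, was tested only in some of these fits.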

Other observations

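Genes that use the products of the pathway, or carry them, were also read. Beside the counts in these lists, 12.1% of all tested genes were higher and 12.0% lower at an unadjusted p under 0.05. DESeq2 called 10.8% of all genes in either direction, and edgeR 1.39%. Of 11 genes of the isoprenoid branch, which makes dolichol, ubiquinone side chains and prenylated proteins, 0 passed the edgeR threshold and 4 were higher at an unadjusted p under 0.05; DESeq2 called 1 higher. Their log2 fold changes were positive for 8 of 11 with a median of 0.32, and their summed level was 292 to 311 CPM in WT and 315 to 395 CPM in IRF8-cKO. Dhdds, which builds the dolichol chain, had the lowest p, at 1.47 in log2 fold change (adjusted p = 0.0820).

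Of 13 genes of intracellular sterol transport and ester turnover, 0 passed, with 2 higher and 2 lower at an unadjusted p under 0.05, 1 called higher by DESeq2 and a median log2 fold change of -0.04. Lipa, the lysosomal acid lipase, had the lowest p at 1.31 (adjusted p = 0.104). Of 12 tested lipoprotein receptors and adaptors, 0 passed, with 2 higher and 1 lower at an unadjusted p under 0.05 and DESeq2 calling 1 each way, and Dab2, an endocytic adaptor, had the lowest p at -1.15 (adjusted p = 0.0881). The 4 electron donors of the sterol oxidases gave 0 calls at an adjusted or unadjusted p under 0.05, and 0 by DESeq2, and a median of -0.51, with Cyb5r3, the cytochrome b5 reductase, at -0.70 (adjusted p = 0.236).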
